A study of Mus musculus with 12 samples.

Results

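Growth hormone acts on the liver through its receptor and the transcription factor STAT5B, and the liver answers with IGF1, the main circulating growth factor of the body. The 10 genes described here are Igf1 and its neighbours in that axis: Ghr, Stat5b, Igf1, Igfals, Socs2, Cish, Igfbp1, Igfbp2, Igfbp3 and Igfbp4. They were found by symbol in a table of 16970 genes, and all 10 were among the 10805 genes with enough signal to test. They were picked with earlier results of these data in view, in particular the values of Igf1, Socs2, Cish and Igfals under HDCA in the Abcb4 knockout model. That comparison is therefore given as a description with no p-value, and p-values elsewhere are those of a fit across all 10805 genes. Comparisons between the models reuse its libraries, so their p-values for these genes are not independent of the choice.

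Binding of growth hormone brings JAK2 to the receptor, JAK2 phosphorylates STAT5B, and STAT5B enters the nucleus and raises transcription of Igf1, Igfals, Socs2 and Cish. SOCS2 and CISH damp the receptor signal, and IGFALS holds IGF1 in a long-lived blood complex with IGFBP3 or IGFBP5. IGFBP1 and IGFBP2 bind IGF1 outside that complex, and insulin lowers Igfbp1 transcription in hepatocytes through FOXO1. Inflammation and fasting are both known to lower hepatic IGF1 output.

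Polyadenylated RNA of mouse liver was sequenced in 12 libraries, 3 in each of 4 groups, in a study of hyodeoxycholic acid (HDCA), a bile acid, in cholestatic mice. The BDL_HDCA group had its bile ducts ligated for 7 days and received HDCA at 100 mg/kg for 4 days, starting 3 days after surgery; the BDL group had the ligation without HDCA. Abcb4-/- mice, lacking the transporter that moves phosphatidylcholine into bile, were 60 days old and received HDCA at 100 mg/kg for 21 days (Abcb4KO_HDCA) or none (Abcb4KO). The titles of the libraries of this second model read MDR and MDR_H; they were taken as the Abcb4 knockout because the series description names no other second model. All 4 groups are cholestatic, unoperated and wild-type livers were not analysed here, and strain and sex are not given. Dose was the same in both models but time on HDCA was not. The labels do not state whether the 3 libraries of a group are 3 animals, so each p-value reflects library-to-library spread that could be technical in part. In Abcb4KO the level of Y-linked genes, given below, differed between libraries, so those 3 are not all from a single animal.

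The table gives FPKM, fragment counts scaled by gene model length and library depth, and 34260782 to 40427855 reads per library could be recovered from its steps. Abcb4 itself was read at 129.1 to 165.3 FPKM in libraries labelled Abcb4KO_HDCA and at 150.1 to 181.3 FPKM in those labelled Abcb4KO, against 72.1 to 178.4 FPKM in BDL_HDCA and 52.8 to 167.8 FPKM in BDL. A gene-level value does not show whether a transcript comes from a disrupted allele, so the genotype rests on the labels, and so does every direction given between the models. The median log2(FPKM + 1) was 2.56 in BDL_HDCA replicate 2 and 2.48 in BDL replicate 1, against 2.81 to 3.06 in the other 10 libraries. Summed over Ddx3y, Uty, Kdm5d and Eif2s3y, 4 genes of the Y chromosome, the level was 0.00457 to 0.0160 FPKM in Abcb4KO_HDCA, and 0 in Abcb4KO replicates 2 and 3 but 20.1 in replicate 1. In the BDL model it was 16.5 to 19.6 FPKM with HDCA and 16.1 to 19.6 FPKM without. The model and the Y-linked level therefore cannot be told apart in comparisons of the treated libraries, and in Abcb4KO the HDCA contrast sets 3 libraries without this signal against a group with 1 that has it. Hepatocyte markers summed to 44959 to 79070 FPKM in every library with none at 0. In such bulk samples fewer cells of a type and less RNA per cell cannot be told apart.

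Sites for STAT5 and for FOXO factors are the features by which growth hormone and insulin are known to reach these genes. The RefSeq table of promoter windows, 250 bases before to 50 after each start on GRCm38.p6, matched 9 of the 10 genes. Capitals mark letters that match TTCNNNGAA, the STAT5 pattern, or CAAAACA, the reverse complement of the FOXO-like pattern TGTTTTG, both searched on both strands; all 4 stretches are on the + strand of their chromosome.
Cish, chr9:107296654-107296683: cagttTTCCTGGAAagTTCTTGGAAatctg
Igfals, chr17:24878163-24878192: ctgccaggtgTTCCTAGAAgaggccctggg
Igfals, chr17:24877598-24877627: gatctataatTTCTCAGAAaagaggctgag
Igfbp1, chr11:7197668-7197697: gagctcacaagCAAAACAaacttattttga
The stretch of Cish holds 2 STAT5 matches, the first at the annotated start and the second 11 bases after it. Igfals has 1 match 58 bases before one annotated start and 1 match 236 bases before another. The FOXO-like letters of Igfbp1 begin 108 bases before its start. The STAT5 pattern was in the windows of 2 of 9 genes described here and in those of 8.34% of 8705 tested genes, and the FOXO-like pattern in 1 of 9 against 5.41%. The FOXO pattern TGTTTAC, searched on both strands as well, was in 1 of 9 against 3.35%; its 1 match was in a window of Igfals, and the window of Igfbp1 had none. A match is a run of letters and not a measured binding site.

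Levels of the 10 genes spanned from the IGF-binding proteins at the top to the feedback inhibitors at the bottom. Averaged over the 12 libraries and compared per length, Igfbp4 stood at 493 FPKM (rank 120 of all genes), Igfbp2 at 266 and Igfbp1 at 194. Ghr followed at 74.1 FPKM, Igf1 at 58.9 and Igfals at 30.5, then Stat5b at 9.74, Igfbp3 at 6.38, Cish at 5.45 and Socs2 at 1.83 (rank 9043). Igf1 varied least but for Igfbp2 and Igfbp4, its highest library being 1.89 times its lowest, and Socs2, Igfbp3 and Igfbp1 varied most, by 12.3, 11.5 and 7.66 times. The lowest gene, Socs2, still had 173 to 1999 recovered reads per library.

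**Figure D1:**
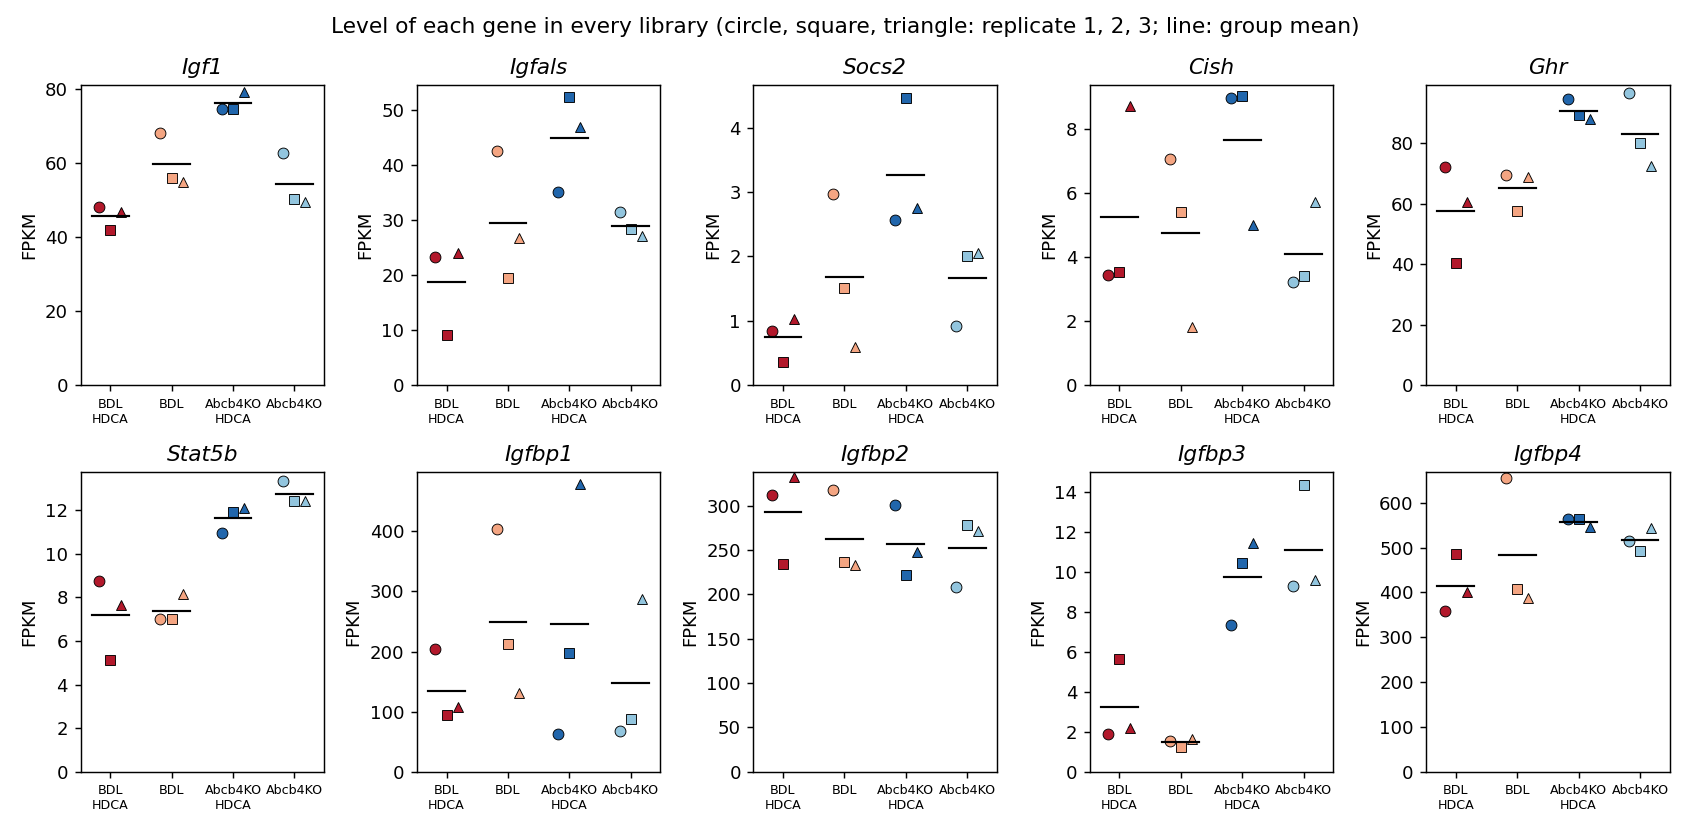
FPKM of the 10 genes in each of the 12 libraries (points, by group along the x axis, with a marker shape for each replicate number); lines are group means of 3 libraries. Igf1 lies higher in the 3 Abcb4KO_HDCA libraries, between 74.6 and 79.3 FPKM, than in any other library, and Igfbp3 lies at 1.25 to 5.64 FPKM in the BDL model and 7.33 to 14.3 FPKM in the Abcb4KO model.

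Ghr (chromosome 15, 3317760 to 3583492, minus strand) encodes the growth hormone receptor. It had 94.7, 89.2 and 88.0 FPKM in Abcb4KO_HDCA and 96.5, 80.2 and 72.5 FPKM in Abcb4KO. In the BDL model it had 72.0, 40.5 and 60.5 FPKM with HDCA and 69.3, 57.5 and 68.6 FPKM without. With and without HDCA the libraries overlapped in both models, and the lowest value of all belonged to BDL_HDCA replicate 2. Stat5b (chromosome 11, 100780731 to 100850724, minus strand), the transcription factor of the receptor, had 10.9, 11.9 and 12.1 FPKM in Abcb4KO_HDCA and 13.4, 12.4 and 12.4 FPKM in Abcb4KO. It had 8.75, 5.12 and 7.64 FPKM in BDL_HDCA and 7.01, 6.99 and 8.17 FPKM in BDL. All 6 libraries of the Abcb4KO model were above all 6 of the BDL model for Stat5b, and within the Abcb4KO model those with HDCA were below those without.

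Igf1 (chromosome 10, 87858265 to 87937042, plus strand), the growth factor at the end of the pathway, had 74.7, 74.6 and 79.3 FPKM in Abcb4KO_HDCA and 62.8, 50.4 and 49.6 FPKM in Abcb4KO. It had 48.0, 42.1 and 46.7 FPKM in BDL_HDCA and 68.1, 56.0 and 54.9 FPKM in BDL. The HDCA libraries were above all untreated ones in the Abcb4KO model and below all untreated ones in the BDL model. The means were 76.2 ± 2.68 FPKM in Abcb4KO_HDCA, 45.6 ± 3.14 in BDL_HDCA, 54.3 ± 7.42 in Abcb4KO and 59.7 ± 7.34 in BDL (SD, n = 3 each). Ordered by mean, Abcb4KO_HDCA stood above BDL, BDL above Abcb4KO, and Abcb4KO above BDL_HDCA. Only the neighbours BDL and Abcb4KO overlapped in that order.

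Igfals (chromosome 17, 24865997 to 24882010, plus strand) encodes the acid-labile subunit that keeps IGF1 in the circulating complex. It had 35.2, 52.4 and 46.9 FPKM in Abcb4KO_HDCA and 31.5, 28.3 and 27.1 FPKM in Abcb4KO. It had 23.3, 9.02 and 24.0 FPKM in BDL_HDCA and 42.5, 19.4 and 26.7 FPKM in BDL. As for Igf1, the Abcb4KO_HDCA libraries were above all others of that model, but in the BDL model the groups overlapped, with the lowest value in BDL_HDCA replicate 2 and the highest in BDL replicate 1.

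Socs2 (chromosome 10, 95385362 to 95417180, minus strand), a target of STAT5B that dampens the receptor, had 2.56, 4.46 and 2.75 FPKM in Abcb4KO_HDCA and 0.910, 2.00 and 2.06 FPKM in Abcb4KO. It had 0.840, 0.361 and 1.02 FPKM in BDL_HDCA and 2.96, 1.501 and 0.588 FPKM in BDL. Again every Abcb4KO_HDCA library was above every Abcb4KO one, whereas the BDL groups overlapped, with BDL replicate 1 at the top and BDL_HDCA replicate 2 at the bottom. Cish (chromosome 9, 107296026 to 107302784, plus strand), an inhibitor of the same family, had 8.98, 9.03 and 5.02 FPKM in Abcb4KO_HDCA and 3.22, 3.40 and 5.71 FPKM in Abcb4KO. It had 3.45, 3.55 and 8.73 FPKM in BDL_HDCA and 7.06, 5.41 and 1.81 FPKM in BDL. Replicate 3 was the exception in every group: it was the lowest library with HDCA and the highest without it in Abcb4KO, and the reverse in BDL, so the libraries with and without HDCA overlapped in both models.

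Igfbp1 (chromosome 11, 7197782 to 7202546, plus strand), which fasting raises and insulin lowers, had 62.5, 197.3 and 478.4 FPKM in Abcb4KO_HDCA and 67.1, 87.2 and 287.5 FPKM in Abcb4KO. It had 204.5, 93.6 and 107.3 FPKM in BDL_HDCA and 403.9, 211.8 and 131.8 FPKM in BDL. The libraries of all 4 groups overlapped, and replicate 1 was the lowest library in both groups of the Abcb4KO model and the highest in both of the BDL model. Igfbp2 (chromosome 1, 72824503 to 72852474, plus strand), a binding protein secreted by hepatocytes, averaged 256.7 ± 40.5 FPKM in Abcb4KO_HDCA, 292.9 ± 51.7 in BDL_HDCA, 252.5 ± 38.1 in Abcb4KO and 262.3 ± 48.0 in BDL (SD, n = 3 each). The libraries of all 4 groups overlapped here too.

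Igfbp3 (chromosome 11, 7206086 to 7213923, minus strand), which carries IGF1 in the ternary complex and lies next to Igfbp1 on the opposite strand, had 7.33, 10.4 and 11.4 FPKM in Abcb4KO_HDCA and 9.28, 14.3 and 9.59 FPKM in Abcb4KO. It had 1.91, 5.64 and 2.19 FPKM in BDL_HDCA and 1.56, 1.25 and 1.65 FPKM in BDL. The models did not overlap, and all BDL_HDCA libraries were above all BDL libraries, replicate 2 by the most. Igfbp4 (chromosome 11, 99041244 to 99054392, plus strand), a binding protein made in liver and other tissues, had 563.7, 563.1 and 545.0 FPKM in Abcb4KO_HDCA and 514.8, 493.5 and 542.9 FPKM in Abcb4KO. It had 359.1, 485.2 and 401.7 FPKM in BDL_HDCA and 654.5, 406.8 and 387.2 FPKM in BDL. The Abcb4KO_HDCA libraries were just above those of Abcb4KO, while the BDL groups overlapped, with the highest value of all in BDL replicate 1.

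**Figure D2:**
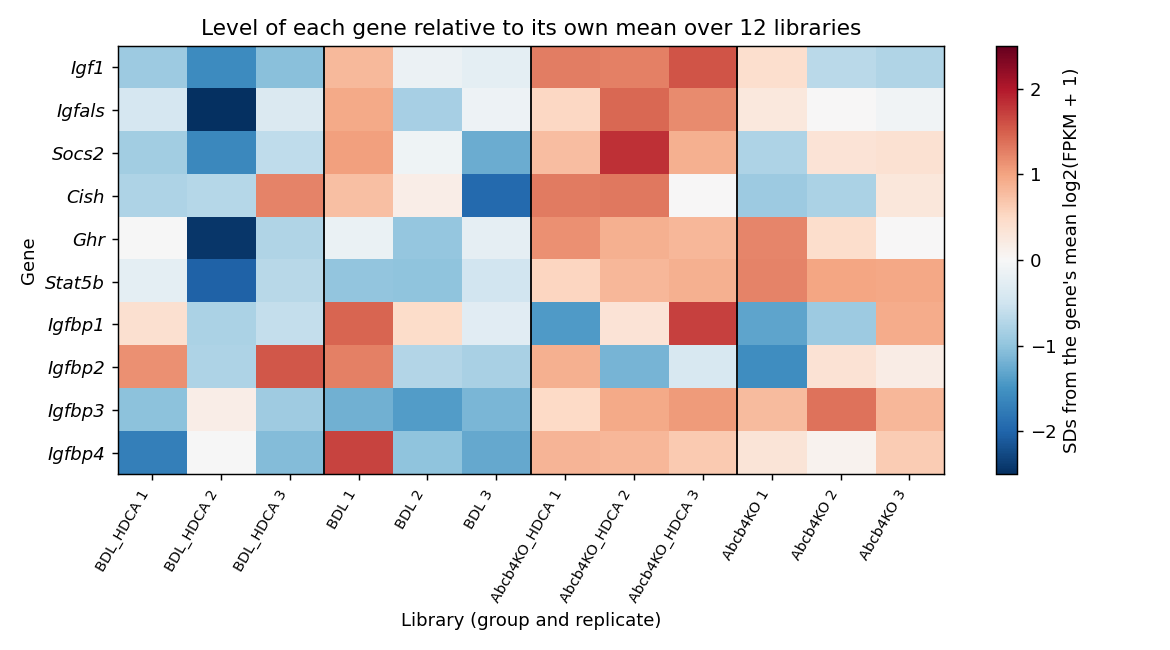
Each gene's log2(FPKM + 1) in the 12 libraries as a z-score over the libraries (columns grouped by condition, genes in rows). Igf1 is highest in the 3 Abcb4KO_HDCA columns, the lowest values of Igf1, Igfals, Socs2, Ghr and Stat5b are in BDL_HDCA replicate 2, and Stat5b and Igfbp3 are higher in both Abcb4KO groups than in both BDL groups.

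The first comparison asked what HDCA did in ligated livers. Igf1 was 0.38 ± 0.13 lower on the log2(FPKM + 1) scale and Igfbp3 0.67 ± 0.29 higher (difference BDL_HDCA minus BDL, ± SE), and these were the only genes of the 10 whose libraries did not overlap. Across all tested genes 1.59% had BDL_HDCA wholly below BDL and 3.43% wholly above. By limma, 0 of 10 passed the test (all adjusted p = 1.00), against 0% of all genes; 2 genes, Igf1 and Igfbp3, and 243 of all genes had an unadjusted p under 0.05, and limma-voom on the recovered reads called 0 as well, with 1 of the 10 and 250 of all genes under 0.05 unadjusted. The differences of Igfals, Socs2 and Igfbp1 were -0.67 ± 0.35, -0.55 ± 0.32 and -0.81 ± 0.72. The others, Cish, Ghr, Stat5b, Igfbp2 and Igfbp4, lay between -0.21 and 0.16. The values depended on the 2 libraries of low median: without both, Igf1 was at -0.22, Igfbp3 at 0.32, Igfals at 0.05 and Socs2 at -0.05.

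The second comparison asked the same in the Abcb4 knockout model, and it is described without a test because the genes were chosen with it in view. Igf1 was 0.49 ± 0.13 higher (Abcb4KO_HDCA minus Abcb4KO, ± SE), Igfals 0.60 ± 0.35, Socs2 0.69 ± 0.32 and Cish 0.76 ± 0.41. The receptor Ghr was at 0.13 ± 0.19 and its transcription factor Stat5b at -0.12 ± 0.16. The binding proteins ranged from -0.17 ± 0.29 for Igfbp3 to 0.60 ± 0.72 for Igfbp1. Igf1, Igfals, Socs2 and Igfbp4 were wholly above and Stat5b was wholly below, where 1.35% and 4.6% of all tested genes were. The only library of Abcb4KO with Y-linked reads was replicate 1, and without it Igf1 was at 0.60, Socs2 at 0.46 and Igfbp1 at 0.19. By replicate number, whose meaning no label gives, the Igf1 differences were 0.25, 0.56 and 0.67.

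**Figure D3:**
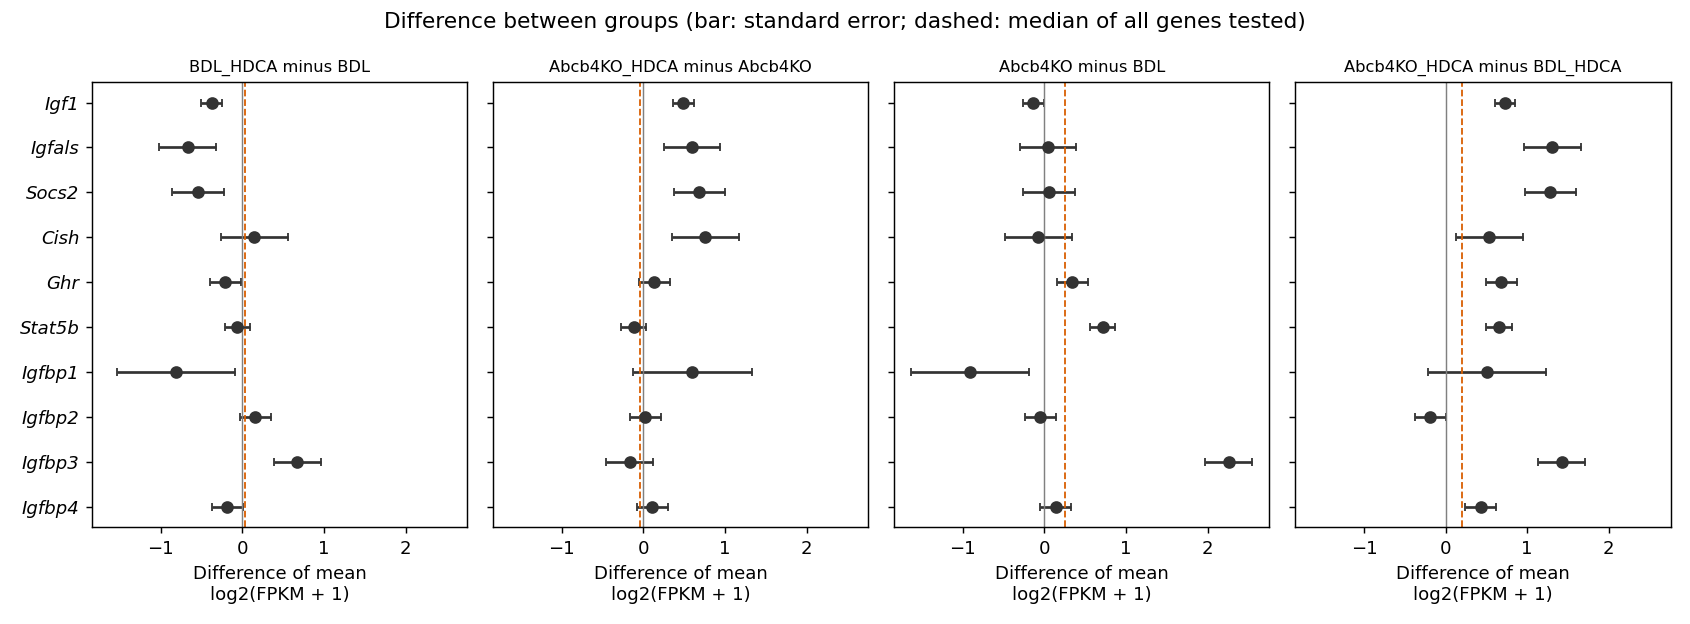
Log2 differences with SE of the 10 genes in the 4 comparisons, positive where the first-named group is higher; the dashed line is the median of all genes tested. Igf1 is at -0.38 with HDCA in BDL, 0.49 with HDCA in Abcb4KO, -0.14 between the untreated models and 0.73 between the treated models.

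The third comparison set untreated Abcb4KO against BDL. On the log2(FPKM + 1) scale Stat5b rose by 0.71 ± 0.16 (SE; limma adjusted p = 0.0138) and Igfbp3 by 2.26 ± 0.29 (limma adjusted p = 0.00192). The ratio of mean FPKM was 1.72 for Stat5b and 7.45 for Igfbp3. These 2 of 10 compare with 15.1% of all genes called higher, and 0 of 10 with 1.07% called lower. Ghr was also above BDL in all 3 libraries (0.34 ± 0.19, limma adjusted p = 0.219); 3 of the 10 were wholly above and 0 wholly below, against 39.2% and 3.12% of all genes. Igf1 itself was at -0.14 ± 0.13 (limma adjusted p = 0.448), Igfals at 0.04 ± 0.35 (0.941), Socs2 at 0.05 ± 0.32 (0.920) and Cish at -0.07 ± 0.41 (0.911). The median of all genes was at 0.25, and relative to it Stat5b stood at 0.46, Igfbp3 at 2.01 and Igf1 at -0.39. With median-of-ratios scaling, which puts that median at -0.05, Igfbp3 kept its call (1.97, limma adjusted p = 0.00639) and Stat5b did not (0.38, limma adjusted p = 0.0786), nor did Stat5b without Abcb4KO replicate 2 (0.0528). Called genes split into 1630 higher and 116 lower without this scaling, and into 640 and 486 with it.

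The fourth comparison set Abcb4KO_HDCA against BDL_HDCA, where the models differed in HDCA time and Y-linked level as well as in kind. It reuses the Abcb4KO_HDCA libraries in view of which Igf1, Igfals, Socs2 and Cish were picked. Its counts and p-values for the 10 genes are therefore not an independent test. Of the 10, 6 rose, against 7.36% of all genes called higher, and 0 fell, against 0.935%. They were Igf1 by 0.73 ± 0.13 (SE; limma adjusted p = 0.0116), Igfals by 1.31 ± 0.35 (0.0442) and Socs2 by 1.28 ± 0.32 (0.0357), followed by Ghr by 0.68 ± 0.19 (0.0493), Stat5b by 0.66 ± 0.16 (0.0316) and Igfbp3 by 1.42 ± 0.29 (0.0196). Cish, Igfbp1, Igfbp2 and Igfbp4 did not pass, with limma adjusted p between 0.160 and 0.673. Libraries of 7 of the 10 lay wholly above and 0 wholly below, as did those of 32.4% and 4.55% of all genes. Relative to the median of all genes at 0.20, Igf1 stood at 0.53, Igfals at 1.11 and Socs2 at 1.09. All 6 calls ended with median-of-ratios scaling, where Igf1 was at 0.46 (limma adjusted p = 0.168), and the split of all calls went to 333 higher and 372 lower, against 795 and 101 without scaling. The count of 6 was 3 without BDL_HDCA replicate 1, 2 without BDL_HDCA replicate 2 or 3, Abcb4KO replicate 3 or Abcb4KO_HDCA replicate 1, and 1 without Abcb4KO_HDCA replicate 2 or 3. Igf1 passed the test whichever of the 12 libraries was left out, with limma adjusted p from 0.00560 to 0.0453.

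Other genes of the receptor pathway gave few calls. Of 24 tested receptor, JAK-STAT and inhibitor genes, 1 rose and 2 fell in untreated Abcb4KO relative to BDL, where 15.1% of all genes rose and 1.07% fell, and their median of 0.19 was near that of all genes, 0.25. Socs3, a STAT3-induced inhibitor of cytokine receptors, fell by 1.98 ± 0.48 (limma adjusted p = 0.0206), and Stat3, the transcription factor of IL-6 signalling, fell by 0.58 ± 0.17 (0.0366). Grb10, an adaptor that dampens insulin and IGF1 receptors, rose by 1.06 ± 0.22 (0.0124). These 3 calls held with median-of-ratios scaling, but without Abcb4KO replicate 1 only 1 higher and 0 lower calls were made. In that last setting 1282 of all 10805 genes rose and 89 fell. Between the treated models Socs3 fell by 2.62 ± 0.48 (limma adjusted p = 0.0136), the 1 lower call. Among 9 tested genes of the IGF axis outside the 10, 2 rose in both model comparisons, where 15.1% of all genes rose untreated and 7.36% treated. Igfbp7, a matrix protein of the wider IGFBP family, rose by 2.06 ± 0.32 untreated (limma adjusted p = 0.00395) and 1.35 ± 0.32 treated (0.0322). Htra1, a secreted serine protease that cleaves IGF-binding proteins, rose by 1.93 ± 0.31 (0.00430) and 1.40 ± 0.31 (0.0261). Neither HDCA comparison called any gene of either list, nor any of the 10805 genes tested, so that result is not particular to these lists.

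Acute phase genes, which cytokines switch on in hepatocytes through STAT3, moved with the model. Of 17 tested, 10 fell in untreated Abcb4KO and 9 fell in Abcb4KO_HDCA relative to the BDL counterpart, and 0 rose in either. Of all genes, 1.07% fell and 15.1% rose in the untreated comparison, and 0.935% fell and 7.36% rose in the treated one. Orm2 fell by 2.62 ± 0.42 untreated (limma adjusted p = 0.00417) and Lcn2 by 2.66 ± 0.57 (0.0133). The untreated count was 5 without Abcb4KO replicate 1 and 5 without BDL replicate 1, where 89 and 139 of all 10805 genes fell. Whether this had a part in the values of Igf1, Igfals or Socs2 was not tested.

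Liver genes that depend on the sex-specific pattern of growth hormone release differed widely within groups. Male-biased genes summed to 14521, 6377 and 5419 FPKM in Abcb4KO_HDCA and 17917, 8848 and 5319 FPKM in Abcb4KO. They summed to 7618, 7334 and 7315 FPKM in BDL_HDCA and 2158, 9085 and 8251 FPKM in BDL. Of these sums, Mup20 alone gave 11461, 4728 and 3586 FPKM in Abcb4KO_HDCA and 8897, 7399 and 3905 in Abcb4KO. It gave 3082, 2628 and 2574 FPKM in BDL_HDCA and 999, 3465 and 3387 in BDL. The sums are thus weighted towards 1 gene, while the medians below count each gene alike. Female-biased genes summed to 141, 427 and 880 FPKM in Abcb4KO_HDCA and 51.3, 298 and 378 FPKM in Abcb4KO, and to 104, 378 and 82.7 FPKM in BDL_HDCA and 615, 94.1 and 75.7 FPKM in BDL. In BDL replicate 1, the library with the highest Igf1 and Socs2 of its group, the male-biased sum was the lowest of all 12 and the female-biased sum the second highest. Of 20 male-biased and 12 female-biased genes tested, 0 were called with HDCA in either model, where 0% of all genes were. Between the treated models the median difference of the male-biased genes was -0.87, with 6 of 20 positive and 8 wholly below, and that of the female-biased genes was 1.62, with 12 of 12 positive; over all genes the median was 0.20, 77.0% were positive and 4.55% wholly below. Of these, 1 male-biased gene and 2 female-biased genes rose and 0 of either list fell, where 7.36% of all genes rose and 0.935% fell. Between the untreated models 0 and 1 rose and 0 fell, where 15.1% and 1.07% of all genes did. Without Abcb4KO replicate 1, which alone of its group has Y-linked reads, 4 male-biased genes fell and 3 female-biased genes rose in untreated Abcb4KO relative to BDL. In that setting 1282 of all 10805 genes rose and 89 fell. The part of these programmes in the values of the 10 genes was not tested.

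Genes of fasting and amino acid stress were set beside Igfbp1, which insulin is known to lower and amino acid shortage to raise. Of 17 tested, 4 fell and 0 rose in untreated Abcb4KO relative to BDL, where 1.07% of all genes fell and 15.1% rose. Between the treated models 1 of 17 fell and 0 rose, against 0.935% and 7.36%. Asns, which makes asparagine, fell by 1.95 ± 0.37 (limma adjusted p = 0.00826), and Atf4, the transcription factor of amino acid stress, by 0.79 ± 0.16 (0.0100). Fgf21, a fasting hormone of liver that opposes growth hormone action, fell by 2.30 ± 0.56 (0.0203), and Chac1, which breaks down glutathione, by 1.51 ± 0.36 (0.0186). Between the treated models Asns fell by 2.01 ± 0.37 (limma adjusted p = 0.0141), while Fgf21 was at 0.035 ± 0.56 (0.973). With HDCA in BDL, 3 of the 17 had a positive difference and 3 were wholly below, against 58.8% and 1.59% of all genes. With HDCA in Abcb4KO 12 of 17 were positive, against 36.0%. Fgf21 was at -1.89 ± 0.56 with HDCA in BDL and at 0.44 ± 0.56 with HDCA in Abcb4KO. Of the 17, 0 were called in either, where 0% of all genes were. Igfbp1 was at -0.91 ± 0.72 between the untreated models (limma adjusted p = 0.376). Pck1, the rate-limiting enzyme of gluconeogenesis, was among the 3 genes nearest to Igfbp1 in profile over the 12 libraries, as described below. It had 444, 736 and 1174 FPKM in Abcb4KO_HDCA and 356, 241 and 984 FPKM in Abcb4KO. Pck1 had 513, 373 and 564 FPKM in BDL_HDCA and 1567, 571 and 631 FPKM in BDL. The highest library was replicate 3 in both Abcb4KO groups and replicate 1 in BDL for both genes, but in BDL_HDCA it was replicate 1 for Igfbp1 and replicate 3 for Pck1. The order of the lower libraries differed between the genes in Abcb4KO and in BDL.

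**Figure D4:**
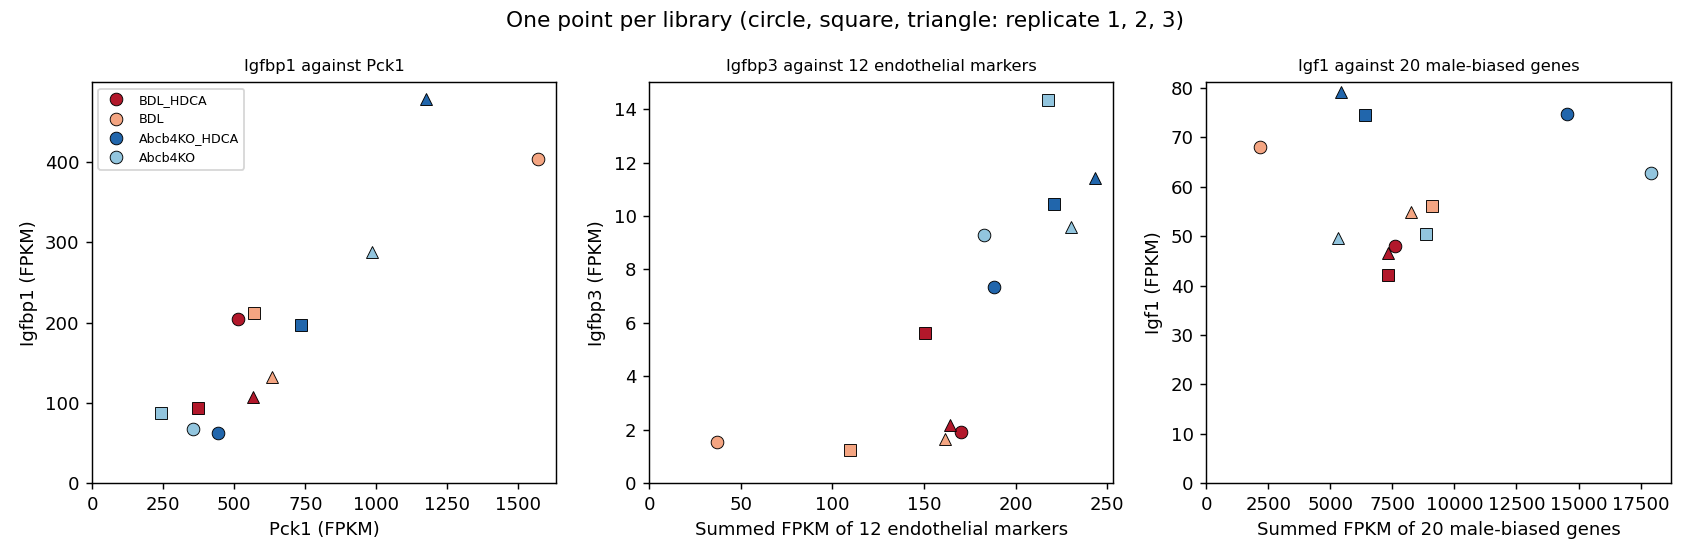
Igfbp1 against Pck1, Igfbp3 against the summed FPKM of 12 endothelial markers, and Igf1 against the summed FPKM of 20 male-biased genes, 1 point per library, coloured by group. The 2 libraries highest for Igfbp1, Abcb4KO_HDCA replicate 3 and BDL replicate 1, are also the highest for Pck1. Igfbp3 and the endothelial sum are both higher in every library of the Abcb4KO model than in any of the BDL model. The male-biased sum is weighted towards its most abundant gene, Mup20.

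Igfbp3 is known in liver mainly from endothelial and other non-parenchymal cells, and markers of these cells were set beside it. In untreated Abcb4KO relative to BDL, 7 of 12 endothelial and 10 of 12 stellate and fibroblast markers rose, and 0 fell, where 15.1% of all genes rose and 1.07% fell. Between the treated models, where Igfbp3 rose by 1.42 ± 0.29, 0 of 12 endothelial and 6 of 12 stellate and fibroblast markers rose. In that comparison 0 of either list fell, and 7.36% of all genes rose and 0.935% fell. The endothelial median there was 0.33, against 0.20 over all genes. Endothelial markers summed to 188 to 243 FPKM in Abcb4KO_HDCA and 183 to 230 in Abcb4KO, and to 150 to 170 in BDL_HDCA and 37.1 to 161 in BDL, with none at 0 in any group. Stellate and fibroblast markers summed to 390 to 519 FPKM in Abcb4KO_HDCA and 318 to 576 in Abcb4KO. In the BDL model they summed to 192 to 287 FPKM with HDCA and 90.8 to 179 without. In the untreated comparison with median-of-ratios scaling, 1 endothelial and 8 stellate markers rose, where 640 of all 10805 genes rose. Without BDL replicate 1, the library of lowest endothelial sum, 3 endothelial markers rose, where 1012 of all genes did. Igfbp3, the endothelial sum and the stellate sum were each higher in every library of the Abcb4KO model than in any of the BDL model. BDL replicate 3 had an endothelial sum of 161 and 1.65 FPKM of Igfbp3, and Abcb4KO replicate 1 had 183 and 9.28 FPKM. These single libraries were picked after the values were seen. With HDCA in BDL all 12 endothelial markers had a positive difference, as did 58.8% of all genes (median 0.78, against 0.03 over all genes). Of the 12, 0 were called, against 0% of all genes. Their median was 0.36 without BDL replicate 1. Cholangiocyte markers gave 5 higher calls of 8, Kupffer cell and macrophage markers 1 of 13, and hepatocyte markers 1 higher and 1 lower of 14 in the untreated comparison; the higher shares of the Kupffer and hepatocyte lists are below that of all genes. The part of these cells in the Igfbp3 value was not tested.

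Beyond the named pathways, the genes whose profile over the 12 libraries was nearest to each member were found as the smallest root mean square difference of z-scored log2(FPKM + 1). For Igf1 these were Dym (0.432), Slc25a33 (0.519) and Tmem42 (0.530), and for Igfals they were Gcgr, the glucagon receptor (0.425), Mrps9 (0.447) and Slc17a2 (0.448). For Socs2 they were Dcaf6 (0.330), Slc13a3 (0.338) and Ly6g2 (0.355). Igfbp1 was nearest to Sesn2, a stress-induced gene (0.456), Pck1 (0.506) and Hgfac (0.542), and Igfbp2 to Riok2 (0.519), Selenbp1 (0.535) and Eef1d (0.642). Among the 10 genes, Ghr and Stat5b differed by 0.461, Igfals and Ghr by 0.542, and Igf1 and Igfals by 0.565. The 12 libraries of 4 groups share these profiles, so likeness here is a description of these libraries.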

How the data were processed

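Per the labels' protocols, polyadenylated liver RNA was made into 12 libraries with a VAHTS Universal V6 kit. The authors deposited FPKM values for 16970 genes. Among the tools in the submitters' processing notes are HISAT2 2.0.5 and featureCounts 1.5.0-p3, beside fastp, CASAVA 1.8 and DESeq2 1.20.0, on GRCm38 (mm10), with no order. Annotation release and strand use: not given in the sources used here. Each gene's FPKM values step by the worth of 1 read; 16968 of 16970 genes (99.99%) gave whole reads within 0.02 of a read, and 34260782 to 40427855 reads per library were recovered.

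Values were transformed as log2(FPKM + 1), which understates changes of low genes. Genes with FPKM of at least 1 in at least 3 libraries were fitted with limma 3.58.1 with trend (R 4.3.3), as 4 group means over 12 libraries with 8 residual degrees of freedom. Tests were two-sided with Benjamini-Hochberg adjustment over 10805 genes, called under 0.05. limma-voom on recovered reads was an alternative. The script was tested on simulated data.

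The members and gene lists were chosen with earlier results of these data known, so no p-value here is independent of that choice. All 10 members are named, as are up to 4 genes with the smallest p per list, and the 3 nearest in profile to each of 5 members. List counts under other settings, Pck1 and single-library values were chosen after the values were seen. Coordinates are from GENCODE M21 (GRCm38). No label says what a replicate number marks. Deviations from the group means of libraries that share a number correlated at 0.438, 0.312 and 0.548 between Abcb4KO_HDCA and Abcb4KO. Elsewhere at least 1 correlation was under 0.1. Correlations between libraries of different number were not computed, so these values do not show whether libraries are paired. The Y-linked sum was 20.1 FPKM in Abcb4KO replicate 1 and 0.0160 FPKM in Abcb4KO_HDCA replicate 1. The main fit used no pairs.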

Additional observations from a re-analysis of the deposited data

Results flagged for a closer look

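Igf1 differed in direction between the models: every BDL_HDCA library was below every BDL library, and every Abcb4KO_HDCA library was above every Abcb4KO library. The difference of the HDCA effects, Abcb4KO model minus BDL model, was 0.87 ± 0.18 (SE) on the log2(FPKM + 1) scale. The gene was chosen with part of this pattern known, so the value is a description. No gene of 10805 passed a test of that difference by limma (adjusted p = 1.00 for Igf1), with 200 at an unadjusted p under 0.05, and 0 were called by limma-voom. Opposite directions without overlap were found for 28 genes (0.259%), and the direction seen for Igf1 in 7 (0.0648%). HDCA was given for 21 days in Abcb4KO and for 4 days in BDL, so time and model cannot be told apart. The Y-linked sum was not balanced either. It was 16.1 to 19.6 FPKM in the BDL model, at most 0.0160 in Abcb4KO_HDCA, and 20.1, 0 and 0 in Abcb4KO. Its part in the difference was not tested. Without BDL replicate 1 and BDL_HDCA replicate 2 together the difference was 0.71.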

How the results depend on the processing

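Of 940 values of single genes under alternative settings, 847 kept direction and side of the threshold, 56 lost and 3 gained a call, and 34 changed sign. Only genes called in the main fit could lose a call: 6 between the treated models, 2 between the untreated models and 0 elsewhere. Most of the 847 values therefore had no call to lose, and their number does not measure how stable the calls were. The cause was not tested. The 6 genes called between the treated models became 3 without a filter on low values, 3 with only the libraries compared and 0 with median-of-ratios scaling, and 1 to 7 without 1 library. The 2 called between the untreated models became 1 with that scaling and 1 to 2 without 1 library. Over all genes, the untreated models gave 1126 calls with scaling, 729 with only the libraries compared and 489 to 2346 without 1 library. The treated models gave 542 with only the libraries compared and 167 to 1550 without 1 library. A block for replicate number was also fitted over all 12 libraries, in both models, although no label says what a number marks. With it the treated models gave 589 calls, and Igfals (limma adjusted p = 0.0527) and Socs2 (0.0624) lost theirs. In the HDCA comparisons no gene was called with or without this block, so there was no call to lose. With median-of-ratios scaling the untreated differences of Igfals, Socs2, Ghr and Igfbp4 turned to -0.32, -0.20, -0.026 and -0.23, and the difference of HDCA effects of Stat5b to 0.032. Without BDL replicate 1 and BDL_HDCA replicate 2 together, HDCA in BDL gave 0.053 for Igfals, 0.069 for Ghr and 0.10 for Stat5b, and the untreated models 0.23 for Cish and 0.094 for Igfbp2. Without 1 library, these changed sign with HDCA in BDL: Cish (-0.31 to 0.46), Ghr (-0.38 to 0.023), Stat5b (-0.20 to 0.13) and Igfbp4 (-0.32 to 0.054). With HDCA in Abcb4KO they were Igfbp1 (-0.10 to 1.36), Igfbp2 (-0.11 to 0.12) and Igfbp3 (-0.28 to 0.020). Between the untreated models they were Igfals (-0.21 to 0.33), Socs2 (-0.28 to 0.38), Cish (-0.53 to 0.23) and Igfbp2 (-0.13 to 0.094). Igfbp1 between the treated models (-0.19 to 1.27) and Stat5b in the difference of HDCA effects (-0.25 to 0.084) also changed sign. The lowest member had 173 or more reads per library; what depth or the group size of 3 did to the calls was not tested.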
